A study of Mus musculus with 8 samples.

Results

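The liver makes fatty acids from dietary carbohydrate, and 10 genes of that pathway were followed here through postnatal development of the mouse liver, with the interval from P14 to P28 at the centre. The genes were chosen by name for their place in the pathway: Fasn, Acaca, Acly, Scd1, Me1, Elovl6, Srebf1, Mlxipl, Thrsp and Pnpla3. Earlier results of these data were known at that choice, so counts of these genes set beside all genes are descriptive. All 10 were among the 22059 genes listed in each sample, and all 10 were among the 17081 genes that passed the filter on low counts. The samples were whole livers of wild-type FVB mice (FVB/NJ in the study's methods), an inbred strain, at embryonic day 18 (E18), postnatal day 14 (P14), postnatal day 28 (P28) and in adults of 3 months, with 2 samples at each stage and 8 in all. Poly(A)-selected RNA was sequenced as pairs of 100 bp reads. The labels give each stage and replicate number but not the sex, litter, batch, feeding state, diet or hour of collection, and the day of weaning is not stated. Laboratory mice normally pass from milk to solid chow between P14 and P28.

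Milk is rich in fat, whereas chow is rich in carbohydrate, and hepatic lipogenesis is known to be low in suckling animals and to increase when they take up a carbohydrate diet. In that pathway, citrate leaves the mitochondria and is cut to acetyl-CoA by ATP citrate lyase (Acly), acetyl-CoA carboxylase 1 (Acaca) makes malonyl-CoA, and fatty acid synthase (Fasn) builds palmitate from both with NADPH that malic enzyme (Me1) helps to supply. Elovl6 lengthens the product and stearoyl-CoA desaturase 1 (Scd1) introduces a double bond. Srebf1, whose protein SREBP-1 acts downstream of insulin, and Mlxipl, whose protein ChREBP acts downstream of glucose, encode the transcription factors best known for switching these enzymes on. Thrsp (Spot 14) is a nuclear protein induced by thyroid hormone and carbohydrate, and Pnpla3 encodes a lipid-droplet protein whose mRNA is itself known as a target of SREBP-1.

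Many of these genes are known for promoters that bind NF-Y, a factor that recognises CCAAT, close to the start site, and the proximal promoters were therefore read. In the mouse promoter sequences of RefSeq (GRCm38.p6), 9 of the 10 genes had an entry and 6 had a single start. Scd1 was not in that table. For Fasn, Acly and Pnpla3, the 120 bases just before the start lay outside every gene annotated in GENCODE M21, and they are shown 5′ to 3′ on the strand of the gene with each CCAAT, read on either strand and so also as ATTGG, in capitals.

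Fasn (chr11:120824548-120824667, minus strand): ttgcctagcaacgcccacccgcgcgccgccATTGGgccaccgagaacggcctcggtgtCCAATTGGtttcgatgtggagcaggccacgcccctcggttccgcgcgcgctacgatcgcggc

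Acly (chr11:100528001-100528120, minus strand): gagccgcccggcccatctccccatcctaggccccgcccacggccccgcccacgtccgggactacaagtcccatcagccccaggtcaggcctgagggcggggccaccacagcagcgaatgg

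Pnpla3 (chr15:84167696-84167815, plus strand): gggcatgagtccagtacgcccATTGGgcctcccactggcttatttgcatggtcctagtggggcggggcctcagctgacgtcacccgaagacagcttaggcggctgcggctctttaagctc

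Fasn held 3 matches, which began 90, 62 and 59 bases before the start, with the last pair overlapping on opposite strands. Pnpla3 held 1 match, 99 bases before its start, and Acly held none. Of the other genes with a single start, Thrsp held 2 matches, 79 and 52 bases before the RefSeq start, and Acaca and Elovl6 held none. The windows of Thrsp and Elovl6 overlapped annotated exons and the window of Acaca lay inside its longer annotated gene, so these were not printed. CCAAT occurred in 21.3% of 32851 promoter windows of the same length. GGGCGG, a core Sp1 motif, was present in Acly and Pnpla3 and in 26.5% of all windows. CACGTG, an E-box, and TCACNCCAC, the sterol response element of SREBP, were found in 0 of the 6 genes, against 3.66% and 0.511% of all windows. Me1, Srebf1 and Mlxipl, with 2, 3 and 2 listed starts, stood outside these counts. In their windows, CACGTG occurred in 1 of Mlxipl and CCAAT in 1 of Srebf1. GGGCGG occurred in 1, 2 and 1 windows of Me1, Srebf1 and Mlxipl, and TCACNCCAC in 0. Both strands were read for each motif, and GGGCGG and CACGTG did not overlap the marked CCAAT. These matches describe letters in a short window and carry no measurement of binding.

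The reads assigned to genes numbered 68154675 to 106055723 per sample. Levels are given as RPKM, the deposited count scaled to transcript length in kilobases and to 1000000 mapped reads, which can be compared between genes. Changes between stages are log2 fold changes with their standard errors from edgeR, fitted on the counts of all 8 samples and scaled by TMM, and a gene was called at an adjusted p below 0.1. The samples of a stage were biological duplicates, but no source ties them to single animals or pools, so p-values measure the spread between these samples as they are. The sex-linked genes differed between the samples. Xist, the RNA of the inactive X chromosome, stood at 774 and 83.6 CPM at E18 and at 0.545 and 570 CPM at P14, but below 1 CPM in all 4 samples of P28 and adult. The Y-linked Ddx3y stood at 0 and 28.0 CPM at E18, 54.2 and 5.76 CPM at P14, and 54.6 to 63.3 CPM in the later samples. P14 sample 2 and E18 sample 2 thus carried RNA of both kinds, and the main result was recomputed without P14 sample 2.

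Most of the lipogenic genes rose steeply between P14 and P28. Of the 10 genes, 8 were higher at P28 (Fasn, Acaca, Acly, Scd1, Me1, Elovl6, Mlxipl and Thrsp), 1 was lower (Srebf1) and 1 was not called (Pnpla3). Over all tested genes 25.2% were higher and 28.6% lower at this step. The rise was over 3-fold for 5 genes, Scd1, Thrsp, Elovl6, Fasn and Me1, against 3.61% of all genes over 3-fold higher and 5.98% over 3-fold lower. All 10 together had a median change of 1.85 on the log2 scale, compared with -0.045 over all tested genes. Together the 10 genes took 0.103% and 0.106% of the counts at P14 and 0.751% and 0.559% at P28. Single genes made up most of these shares. Srebf1 had 56675 of 109510 and 63191 of 110977 reads of the set in the P14 samples. Scd1 had 468653 of 709609 and 255496 of 465697 in the P28 samples. Without P14 sample 2, the same number of genes was higher, 8, and 5 were again over 3-fold, but 0 were lower. The count over 3-fold was 6 without P14 sample 1 and 7 without P28 sample 2. In whole liver, fewer cells of a type and less RNA per cell cannot be told apart.

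**Figure D1:**
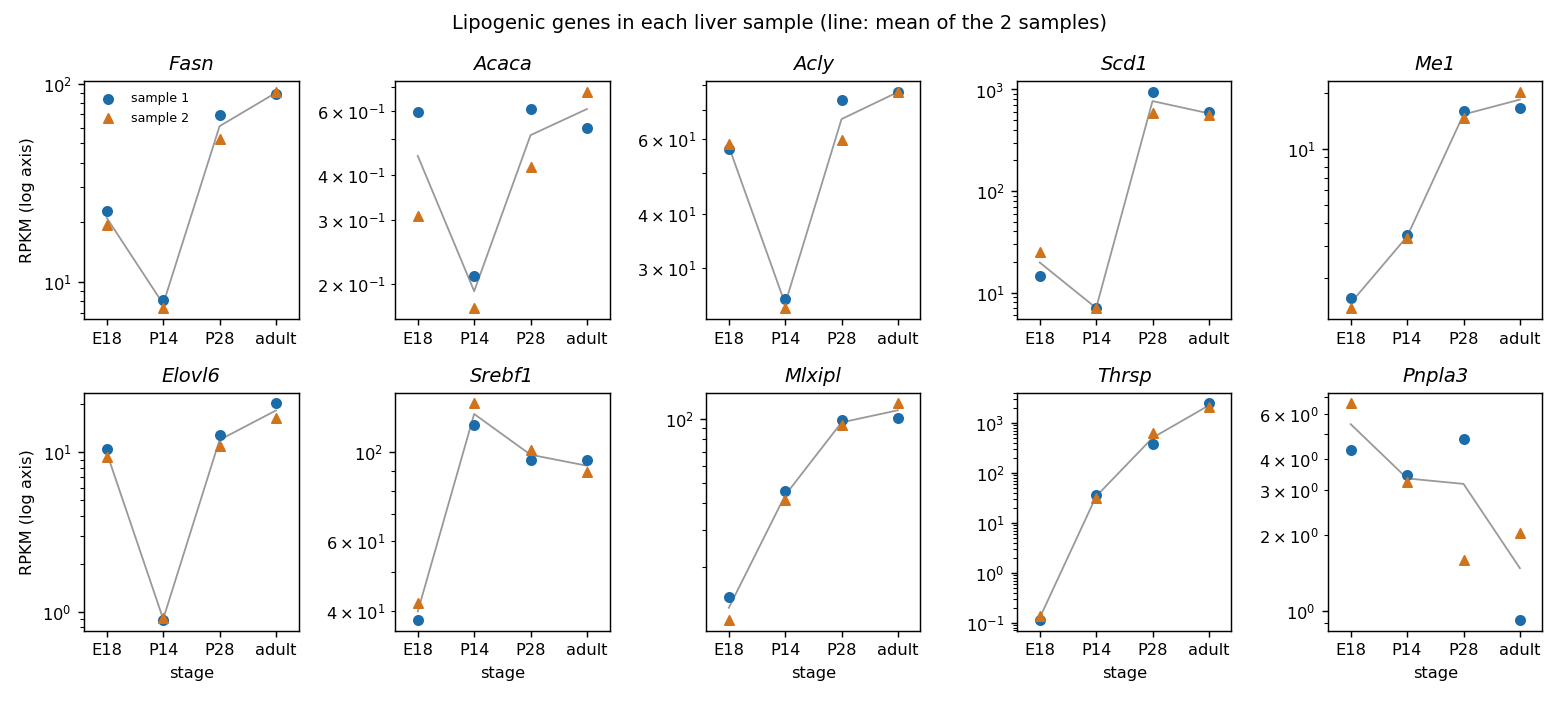
Level of each of the 10 lipogenic genes in the 8 liver samples, in RPKM on a log axis that differs between panels, against stage; circles are sample 1, triangles sample 2 and lines join the means. Fasn, Acaca, Acly, Scd1 and Elovl6 are lowest at P14, Me1, Mlxipl and Thrsp are lowest at E18, Srebf1 peaks at P14, and the P28 samples of Pnpla3 lie far apart, at 4.77 and 1.59 RPKM.

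At the head of the pathway, the genes for acetyl-CoA and malonyl-CoA supply were both higher at P28. Acly, which provides cytosolic acetyl-CoA, was measured at 56.7 and 58.3 RPKM at E18, then 25.4 and 24.2 at P14, 73.6 and 59.5 by P28 and 77.0 and 76.8 in adults. Both P28 samples lay above both P14 samples and the change was 1.46 ± 0.12 on the log2 scale (2.75-fold, adjusted p = 3.4e-05, edgeR). Acaca, the carboxylase that commits carbon to synthesis, was present at 0.594 and 0.307 RPKM at E18, then 0.210 and 0.171 at P14, 0.608 and 0.420 by P28 and 0.537 and 0.677 in adults. Acaca had the lowest level per length of the 10 genes at P14, P28 and in adult, a low value for a liver enzyme, and whether the counting missed some of its reads was not tested. With 171 to 562 reads per sample at P14 and P28 its groups did not overlap. The change was 1.47 ± 0.31 (2.77-fold, adjusted p = 0.0046). The changes of both enzymes lay within their errors of each other, from levels per length that differed greatly.

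Fasn, which joins the carbon units into palmitate, was read at 22.7 and 19.4 RPKM at E18, then 8.13 and 7.36 at P14, 69.4 and 52.8 by P28 and 89.1 and 91.0 in adults. The lowest P28 sample exceeded the highest P14 sample, and the change was 3.02 ± 0.16 on the log2 scale (8.10-fold, adjusted p = 3.1e-06). Me1, the malic enzyme, followed another course up to P14. It was measured at 1.57 and 1.38 RPKM at E18, then 3.44 and 3.28 at P14, 15.95 and 14.8 by P28 and 16.6 and 20.3 in adults, so that each stage mean lay above the one before. Its rise from P14 to P28 was 2.23 ± 0.11 (4.68-fold, adjusted p = 2.7e-06).

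The enzymes that finish the product had larger fold changes than the synthase, a difference that was not tested. Elovl6, the elongase of palmitate, was at 10.5 and 9.32 RPKM at E18, then 0.889 and 0.913 at P14, 12.9 and 11.04 by P28 and 20.3 and 16.4 in adults. Its change from P14 to P28 was 3.77 ± 0.15 on the log2 scale (13.6-fold, adjusted p = 7e-07), with the P28 mean near that of E18 in RPKM (11.98 and 9.92) but above it after TMM scaling (90.4 and 40.3 CPM). Scd1 had the largest change of the 10 genes in the edgeR fit. It was measured at 14.7 and 24.8 RPKM at E18, then 7.10 and 6.99 at P14, 946.9 and 588.9 by P28 and 602.0 and 560.8 in adults. In counts this was 3868 and 3747 reads in the P14 samples against 468653 and 255496 at P28. The P28 samples differed from each other, but by much less than from P14, and the change was 6.81 ± 0.35 (112-fold, adjusted p = 3e-06), which ranked 35 among the 17081 tested genes by signed change.

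The genes of both transcription factors took different courses from each other after P14. Mlxipl was measured at 14.4 and 11.3 RPKM at E18, then 45.9 and 41.3 at P14, 98.6 and 93.4 by P28 and 101 and 118 in adults. It rose from P14 to P28 by 1.18 ± 0.13 on the log2 scale (2.26-fold, adjusted p = 0.00016), with no overlap of the samples. Srebf1 stood at 38.0 and 41.8 RPKM at E18, then 117 and 133 at P14, 95.9 and 101 by P28 and 95.8 and 89.4 in adults. Its highest mean was thus at P14, the stage at which the means of Fasn, Acly, Acaca, Scd1 and Elovl6 were lowest. From E18 to P14 the fall of Acaca was not called (-0.38 ± 0.31, adjusted p = 0.29, edgeR). The call of Scd1 at that step did not hold in every fit. From P14 to P28 Srebf1 fell by 0.30 ± 0.12 on the log2 scale (adjusted p = 0.059), a call that was lost without P14 sample 2 (-0.20, adjusted p = 0.32), without P28 sample 1 (-0.28, adjusted p = 0.22) and without P28 sample 2 (-0.33, adjusted p = 0.15). Over all alternatives the adjusted p of Srebf1 at this step ran from 0.022 to 0.32. The gene counts do not separate the 3 starts that RefSeq lists for Srebf1, nor the 2 of Mlxipl, and mRNA does not measure the cleaved SREBP-1 protein.

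Thrsp spanned the widest range of the 10 genes. It was counted with 11 and 12 reads at E18 (0.113 and 0.137 RPKM) and reached 36.8 and 31.3 RPKM at P14, 390.7 and 625.2 by P28 and 2478 and 2068 in adults. The samples of every stage lay above all those of the stage before. From P14 to P28 its change was 3.93 ± 0.23 on the log2 scale (15.2-fold, adjusted p = 5.3e-06). Pnpla3 was the exception. It was measured at 4.33 and 6.59 RPKM at E18, then 3.46 and 3.22 at P14, 4.77 and 1.59 by P28 and 0.923 and 2.03 in adults. Its P28 samples lay on either side of the P14 samples, and the change of -0.03 ± 0.48 (adjusted p = 0.97) was not called. The wide error leaves the direction of Pnpla3 unresolved at this step, and 1 library decides it: the value was 0.56 (adjusted p = 0.29) without P28 sample 2 and -1.05 (adjusted p = 0.085) without P28 sample 1, with adjusted p from 0.085 to 1 over all alternatives.

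**Figure D2:**
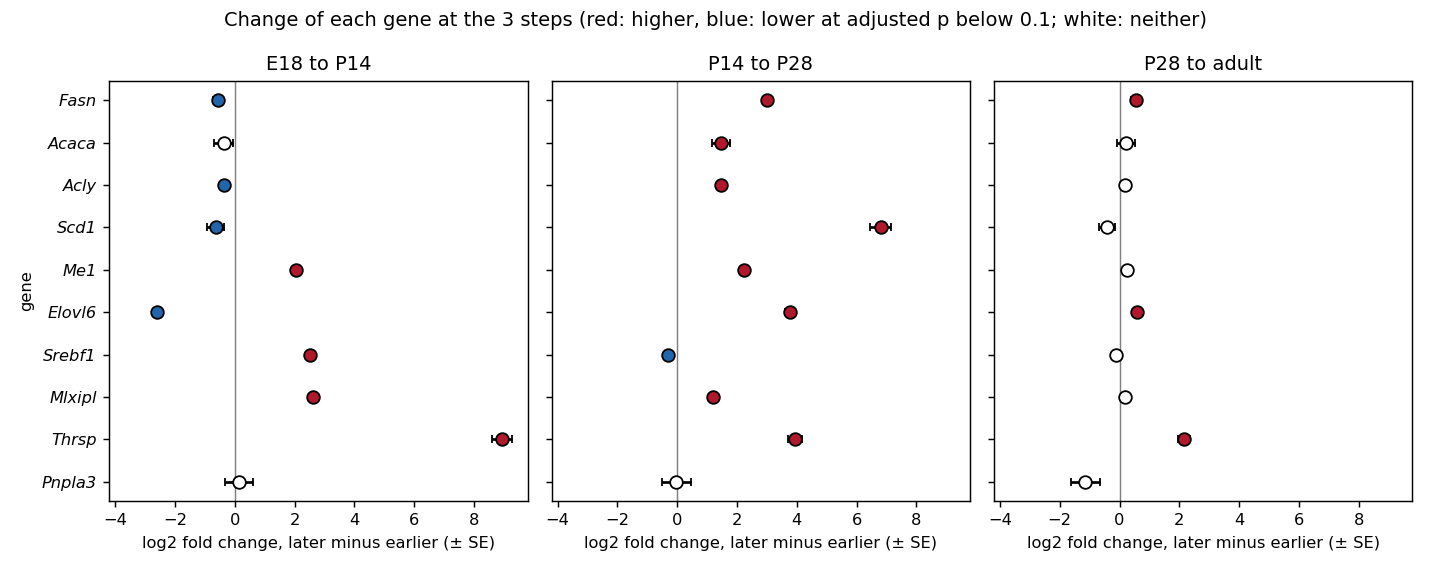
Log2 fold change with its standard error for each of the 10 lipogenic genes at the 3 successive steps, later minus earlier stage; red marks genes called higher, blue genes called lower and white genes not called at adjusted p below 0.1. From P14 to P28, 8 genes are red and Scd1 lies farthest right at 6.81, whereas from P28 to adult 3 genes are red and none is blue.

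The earlier step, from E18 to P14, split the genes. Of the 10, 4 were higher at P14 (Me1, Srebf1, Mlxipl and Thrsp), 4 were lower (Fasn, Acly, Scd1 and Elovl6) and 2 were not called (Acaca and Pnpla3), where 38.2% of all tested genes were higher and 39.3% lower. Thrsp changed by 8.93 ± 0.33 on the log2 scale (adjusted p = 4.1e-08, edgeR), Mlxipl by 2.62 ± 0.14 (adjusted p = 2.7e-07), Srebf1 by 2.5 ± 0.12 (adjusted p = 1.8e-07) and Me1 by 2.05 ± 0.12 (adjusted p = 4.5e-07). Elovl6 fell by 2.60 ± 0.14 (adjusted p = 3.4e-07), and the falls of Fasn (-0.58 ± 0.15, adjusted p = 0.006), Scd1 (-0.64 ± 0.28, adjusted p = 0.065) and Acly (-0.36 ± 0.12, adjusted p = 0.024) were small. The call of Scd1 was lost without E18 sample 2 (-0.18, adjusted p = 0.54), without P14 sample 1 (-0.64, adjusted p = 0.17) and without P14 sample 2 (-0.63, adjusted p = 0.17), and that of Acly without P14 sample 2 (-0.33, adjusted p = 0.11). Their adjusted p ran from 0.00067 to 0.54 and from 1e-05 to 0.11 over all alternatives. So both transcription factors and Thrsp were already up at P14, while 4 of the enzymes were below their fetal level.

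The size of this first step depends on the scale. TMM gave the E18 samples factors of 1.60 and 1.54 and the later samples 0.847 to 0.888, and scaling by library size alone moved the median change of all genes from E18 to P14 to -0.897. On that scale Fasn was at -1.45 (adjusted p = 1.9e-05), Elovl6 at -3.47 (adjusted p = 5.7e-08) and Acaca, now called, at -1.26 (adjusted p = 0.0055), so 5 genes were lower and 4 higher. The RPKM, which are also scaled to all mapped reads, carry a like shift, with a median of -0.736 on log2(RPKM + 0.1). The erythroid markers Alas2, Klf1, Slc4a1, Epor and Hbb-b1 were all lower at P14 by edgeR. Alas2, the first enzyme of heme synthesis in red cells, was at 1135 and 1639 CPM at E18 and 35.1 and 29.0 CPM at P14 (-5.44, adjusted p = 5e-08), and Slc4a1, the red cell anion exchanger, was at 3300 and 4052 CPM at E18 and 3.56 and 4.94 CPM at P14 (-9.76, adjusted p = 1.1e-08). Hepatocyte markers summed to 42530 to 43160 CPM at E18 and 205800 to 206100 CPM at P14, and all 6 were higher at P14. The part of the changing cell makeup in the fetal values was not tested. Between the 3 postnatal stages the median of all genes moved by less than 0.1 under each scaling tried.

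From P28 to adult the pathway changed little apart from Thrsp. Of the 10 genes, 3 were higher in adult (Fasn, Elovl6 and Thrsp), 0 were lower and 7 were not called, against 7.94% of all tested genes higher and 13.2% lower. Thrsp rose a further 2.15 ± 0.21 on the log2 scale (4.43-fold, adjusted p = 0.00044, edgeR). The rises of Elovl6 (0.59 ± 0.13, adjusted p = 0.019) and Fasn (0.54 ± 0.15, adjusted p = 0.042) were less than a doubling, and both rested on single libraries. Without P28 sample 2 the values were 0.47 for Elovl6 (adjusted p = 0.11) and 0.34 for Fasn (adjusted p = 0.22), and without adult sample 1 they were 0.41 (adjusted p = 0.12) and 0.53 (adjusted p = 0.14). Fasn also lost its call without adult sample 2 (0.54, adjusted p = 0.14). Over all alternatives the adjusted p ran from 0.0024 to 0.22 for Fasn and from 0.0008 to 0.12 for Elovl6. Scd1 was at -0.42 ± 0.28 (adjusted p = 0.35) and was not called. Pnpla3 was at -1.14 ± 0.50 (adjusted p = 0.17), and at -1.73 (adjusted p = 0.028) without P28 sample 2, with adjusted p from 0.028 to 0.92 over all alternatives. It was the 1 gene lower at an unadjusted p under 0.05 in edgeR, against 0 in DESeq2 and limma.

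Adult liver set against P14, a comparison that shares the P14 samples with the step to P28, had 8 genes higher and 2 lower, where 29.0% of all tested genes were higher and 32.1% lower. The 8 were all but Srebf1 and Pnpla3, with log2 fold changes from 1.35 for Mlxipl to 6.38 for Scd1 (edgeR, adjusted p below the threshold for all 8). Thrsp reached 6.08 (67.6-fold). Srebf1 (-0.41 ± 0.12, adjusted p = 0.015) and Pnpla3 (-1.16 ± 0.49, adjusted p = 0.076) were the lower pair, and neither call held in every fit. Srebf1 was at -0.31 (adjusted p = 0.12) without P14 sample 2 and at -0.35 (adjusted p = 0.1) without adult sample 2, and its adjusted p ran from 0.0053 to 0.12 over all alternatives. Pnpla3 was at -0.72 (adjusted p = 0.33) without adult sample 1, -1.12 (adjusted p = 0.17) without P14 sample 1, -1.21 (adjusted p = 0.15) without P14 sample 2 and -1.13 (adjusted p = 0.14) with DESeq2, and its adjusted p ran from 0.017 to 0.33.

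The order of the genes by level per length turned over with these changes. At E18 Acly (57.5 RPKM, mean) and Srebf1 (39.9) were highest and Thrsp (0.125) was lowest. At P14 the transcription factors Srebf1 (125 ± 11.04 RPKM, SD, n = 2) and Mlxipl (43.6 ± 3.25) led, and the enzymes of elongation and carboxylation were at the bottom, with Elovl6 at 0.901 ± 0.017 and Acaca at 0.191 ± 0.028. By P28 Scd1 (768 ± 253) and Thrsp (508 ± 166) led, and these neighbours in the order were not apart, since their samples overlapped. Next came Srebf1 (98.6 ± 3.93) and Mlxipl (96.0 ± 3.66), which also overlapped, then Acly (66.6 ± 9.998) and Fasn (61.1 ± 11.8), which overlapped as well, then Me1 (15.4 ± 0.851), Elovl6 (11.98 ± 1.33), Pnpla3 (3.18 ± 2.25) and Acaca (0.514 ± 0.133). In adult Thrsp (2273 ± 290) stood above Scd1 (581 ± 29.2) with no overlap.

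Ratios within a sample, which need no scaling between samples, showed the same change in balance. The level of Scd1 relative to Fasn, in RPKM, was 0.646 and 1.28 at E18, then 0.873 and 0.949 at P14, 13.6 and 11.2 by P28 and 6.76 and 6.16 in adults. Scd1 thus went from about parity with the synthase to a large excess after P14, while its paralogue Scd2 stood above Fasn at E18. Acly relative to Fasn went the other way, with 3.13 and 3.29 at P14, 1.06 and 1.13 by P28 and 0.864 and 0.844 in adults. Elovl6 relative to Fasn was 0.464 and 0.481 at E18, then 0.109 and 0.124 at P14, 0.186 and 0.209 by P28 and 0.227 and 0.180 in adults, and so did not return to its fetal value. Mlxipl relative to Srebf1 was 0.392 and 0.311 at P14 against 1.03 and 0.921 at P28. These ratios were described without a test.

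Other genes of the pathway were taken from 5 lists, whose counts stand beside 25.2% of all tested genes higher, 28.6% lower and an all-gene median of -0.045 at this step. Among 20 genes that supply carbon and NADPH, 12 were higher at P28 than at P14, 3 were lower and 5 were not called, with a median log2 fold change of 0.50. Acss2, the cytosolic acetyl-CoA synthetase, rose most, from 7.19 and 7.20 RPKM at P14 to 49.3 and 41.9 at P28 (2.70 ± 0.11, adjusted p = 8.5e-07, edgeR). Pklr, liver pyruvate kinase and a well-known target of ChREBP, rose from 34.0 RPKM (mean) to 114 (1.79 ± 0.13, adjusted p = 1.8e-05). Slc25a1, the mitochondrial citrate carrier, rose from 55.8 to 126 RPKM (1.21 ± 0.09, adjusted p = 2.3e-05). Me2, the mitochondrial malic enzyme, fell by 1.31 (adjusted p = 0.00013) to 0.763 RPKM, opposite to Me1.

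**Figure D3:**
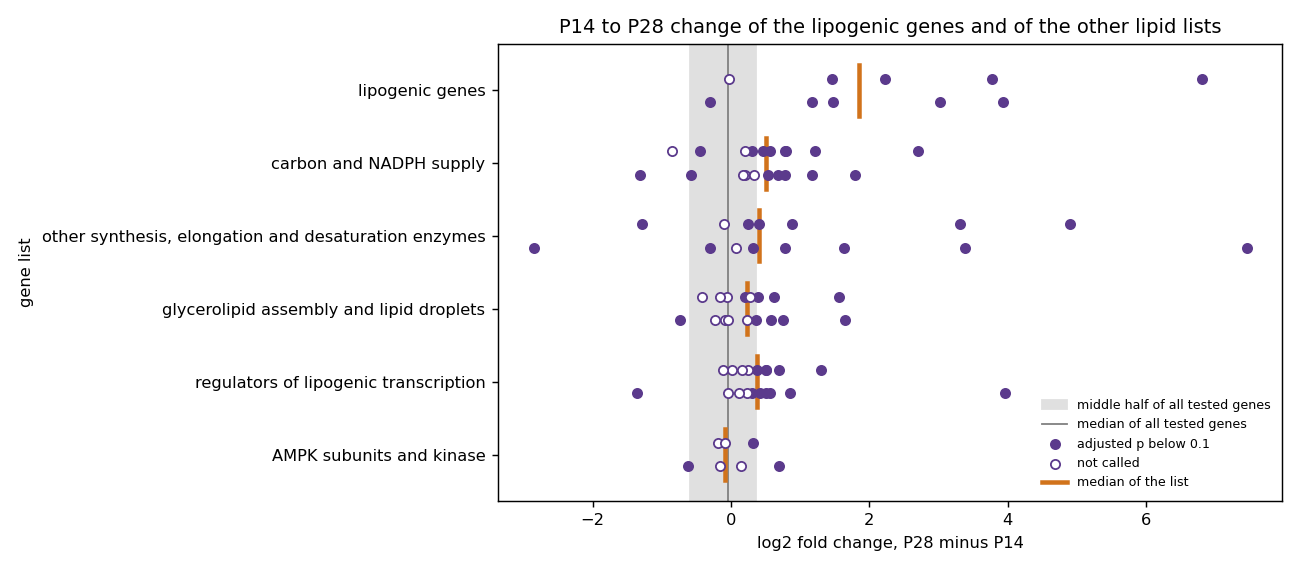
Log2 fold change from P14 to P28 of each tested gene of the lipogenic set and of 5 lists of related genes; filled points passed adjusted p below 0.1, orange bars are list medians, and the grey band spans the lower to the upper quartile of all tested genes, -0.59 to 0.36. The lipogenic genes have a median of 1.85 and the 5 lists have medians from -0.09 to 0.50, close to or inside the band, with single genes such as Elovl3 at 7.46 far outside it.

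Among 15 other enzymes of synthesis, elongation and desaturation, 10 were higher at P28, 3 were lower and 2 were not called (median 0.40). Elovl3, an elongase of saturated chains, rose from 0.647 and 0.629 RPKM to 74.6 and 145 (7.46 ± 0.37, adjusted p = 2.3e-06), a value above that of Scd1 by less than their summed errors. Acacb, the mitochondrial acetyl-CoA carboxylase whose malonyl-CoA restrains fatty acid oxidation, rose from 0.294 and 0.365 RPKM to 10.4 and 8.92 (4.91 ± 0.18, adjusted p = 6.8e-07). Scd3 (3.38, adjusted p = 0.00066) and Scd4 (3.32, adjusted p = 0.0014) were called higher, but their levels stayed below 0.2 RPKM and they are close copies of Scd1, from which reads may have been assigned, so both are uncertain. In the glycerolipid and lipid-droplet list, 8 of 17 tested genes were higher, 1 was lower and 8 were not called (median 0.23), and Cidea was too low to be tested. Gpam, the acyltransferase that starts triglyceride assembly, rose by 1.65 (adjusted p = 0.00011), Mogat1, which acylates monoacylglycerol, by 1.57 (adjusted p = 0.021) and Cidec, a droplet-fusion protein, by 0.75 (adjusted p = 0.0037), while Plin4, a droplet coat protein, fell by 0.73 (adjusted p = 0.019). Of these, Mogat1 and Plin4 had means below 0.5 RPKM at both stages.

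Among 19 regulators of lipogenic transcription, 11 were higher, 1 was lower and 7 were not called (median 0.38). Insig1, which retains the SREBP complex in the endoplasmic reticulum and is itself a known target of SREBP, rose from 2.55 and 2.71 RPKM to 36.1 and 44.6 (3.97 ± 0.13, adjusted p = 2.8e-07). Mid1ip1, the paralogue of Thrsp that promotes polymerisation of acetyl-CoA carboxylase, rose by 1.30 ± 0.18 (adjusted p = 0.00049) and Ppargc1b, a coactivator of SREBP, by 0.85 ± 0.23 (adjusted p = 0.016). Mlx, the dimer partner of ChREBP, rose by 0.51 ± 0.10 (adjusted p = 0.0032). Pparg, an adipogenic receptor, was the 1 that fell, by 1.35 ± 0.21 (adjusted p = 0.001). Of 7 subunits of AMPK and its kinase, which together inhibit lipogenesis when energy is low, 2 were higher (Prkaa2, 0.70, adjusted p = 0.013, and Stk11, 0.32, adjusted p = 0.026), 1 was lower (Prkab1, -0.62, adjusted p = 0.0018) and 4 were not called, with a median of -0.09, so their shares were near or below those of all genes. No list was tested as a set.

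From P14 to P28 some paralogues of the lipogenic genes moved in the same direction as their relative and others did not. Scd2, the desaturase of fetal liver and brain, was at 167 and 195 RPKM at E18, then 3.22 and 4.63 at P14, 1.66 and 1.49 by P28 and 0.927 and 1.25 in adults. The fall of Scd2 was 4.67 ± 0.22 on the log2 scale from E18 to P14 (adjusted p = 1.4e-07, edgeR). From P14 to P28, the step at which Scd1 rose, Scd2 fell by 1.28 ± 0.20 (adjusted p = 9.2e-04, edgeR). At P14 both were low, but Scd1, at 7.10 and 6.99 RPKM, already lay above Scd2. The more abundant desaturase message was thus Scd2 at E18 and Scd1 at P14 and P28. Acacb and Acaca had means of 0.329 and 0.191 RPKM at P14 and of 9.66 and 0.514 RPKM at P28, with the same limit on the level of Acaca. Elovl5, which elongates polyunsaturated chains, was already at 269 and 281 RPKM at P14, reached 419 and 288 at P28 (0.40 ± 0.17, adjusted p = 0.079) and fell to 146 in both adult samples (-1.29, adjusted p = 0.0017). Srebf2, which drives cholesterol synthesis, rose from 10.3 and 11.4 RPKM to 15.5 and 15.8 (0.56 ± 0.11, adjusted p = 0.0032), whereas Srebf1 did not rise.

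**Figure D4:**
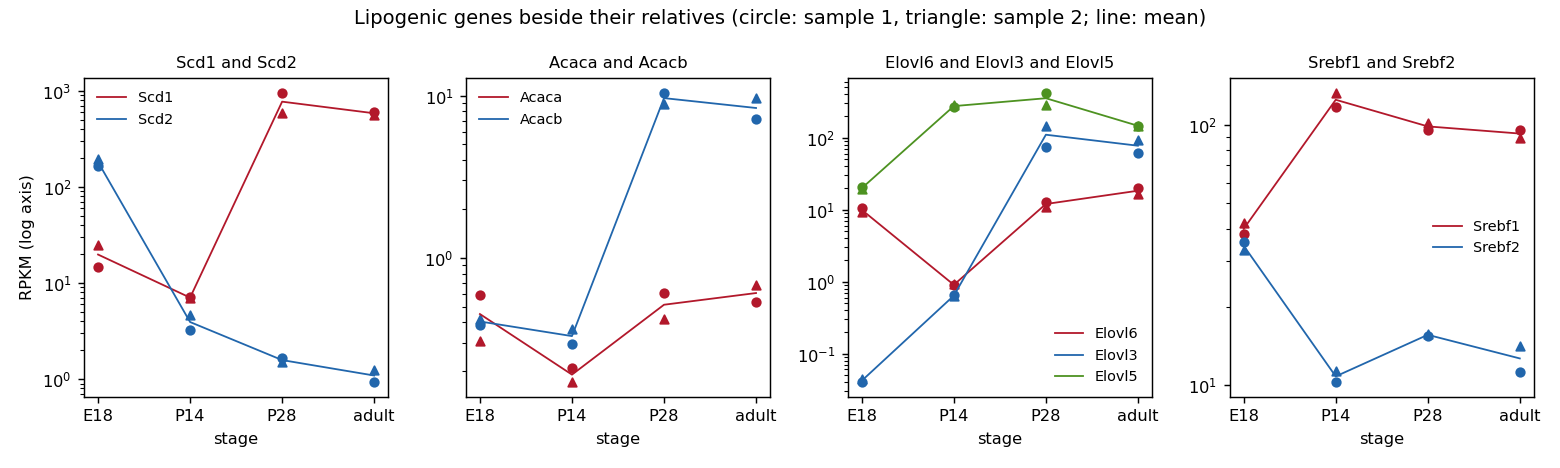
RPKM on a log axis against stage for 4 groups of related genes; circles are sample 1, triangles sample 2 and lines join the means. Scd2 falls from 181 RPKM (mean) at E18 to 1.58 at P28 while Scd1 reaches 768, Acacb lies above Acaca from P14 on, at 9.66 against 0.514 RPKM at P28, Elovl3 rises to 110 RPKM at P28, and Srebf1 and Srebf2 move apart between E18 and P14.

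The likeness of single genes to Fasn was measured as Pearson's r of log2 CPM over the 8 samples, and other genes were ranked among 8694 with a mean of at least 10 CPM, a level that Acaca does not reach. The points share stage and library, so r is a description. Within the lipogenic set, r with Fasn was 0.996 for Acly, 0.978 for Scd1, 0.949 for Acaca, 0.900 for Elovl6, 0.853 for Me1, 0.753 for Thrsp, 0.721 for Mlxipl, 0.312 for Srebf1 and -0.502 for Pnpla3. The enzymes thus stood nearer to Fasn than both transcription factors. The 5 most similar genes outside the set were 4930471I20Rik, a RIKEN transcript (r = 0.999), Invs, which encodes the ciliary protein inversin (0.998), Acss2 (0.994), Pnpla6, a lysophospholipase (0.992), and Pcmtd2 (0.991). Their changes from P14 to P28 were 2.88, 1.65, 2.70, 1.05 and 0.94 on the log2 scale, in that order.

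Markers of cell type and state were read beside these changes. All 6 hepatocyte markers (Alb, Apoa1, Ttr, Cps1, Hnf4a and Tat) were measured in the labelled tissue, with a sum of 205800 to 206100 CPM at P14 and 142300 to 155700 CPM at P28, most of it Alb. From P14 to P28, 1 of the 6 was higher (Tat, 1.29, adjusted p = 0.00023, edgeR), 3 were lower and 2 were not called. Over all tested genes, 25.2% were higher and 28.6% lower at this step, and the marker counts below stand beside these shares. Adipocytes express many of the same enzymes. Of 6 adipocyte markers, Plin1, Lep, Retn and Cfd were too low to be tested, Lep was at 0 in all P14 and P28 samples, Adipoq stood at 0.149 RPKM (mean) at P14 and 0.117 at P28, and the summed level was 38.1 to 46.8 CPM at P14 and 11.2 to 13.1 CPM at P28, most of it Fabp4, which macrophages and endothelial cells express too. Endothelial markers were lower at P28 in 4 of 4, with sums of 311 to 333 CPM at P14 and 116 to 118 CPM at P28. Bile duct markers were lower in 4 of 4, with 12.04 to 25.5 and 7.85 to 8.82 CPM. Leukocyte markers were lower in 3 of 5, with 57.8 to 59.9 and 15.5 to 18.8 CPM. Most of the leukocyte fall was Ngp, at 36.8 and 39.7 CPM at P14 and 0.313 and 0.294 CPM at P28. Ptprc and Lyz2 were not called (adjusted p = 0.19 and 0.94, edgeR). Of the Kupffer cell markers, 1 was higher and 1 lower of 4, with sums of 358 to 400 CPM at P14 and 371 to 450 CPM at P28. Exocrine pancreas markers, which summed to 229.5 to 502 CPM at E18, were at 10.7 to 10.95 CPM at P14, nearly all of it Pnliprp1 (10.9 and 10.2 CPM), and 0.294 to 0.325 CPM at P28. The part of these cells in the lipogenic changes was not tested.

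Feeding and hour of the day are known to set the level of the lipogenic genes, and genes that follow them were read at the same step, at which 25.2% of all tested genes were higher and 28.6% lower. Of 8 genes that fasting induces in liver, 0 were higher and 5 were lower at P28 than at P14. Igfbp1, which insulin represses, was at 287 and 317 CPM at P14 and 66.8 and 35.9 CPM at P28 (-2.56 ± 0.61, adjusted p = 0.0087, edgeR), and Fgf21, Cpt1a, Pdk4 and Angptl4 were the other 4 that fell. None was higher in DESeq2 or limma or at an unadjusted p under 0.05 either. The 8 genes summed to 9525 to 9546 CPM at P14 and 8914 to 9149 CPM at P28. Of 11 clock genes, 4 were higher (Nr1d1, Dbp, Nr1d2 and Clock) and 2 lower (Per1 and Cry1). For calls of any size this was together a share close to that of all genes. The changes of Nr1d1, Dbp (2.46 ± 0.47, adjusted p = 0.003, edgeR) and Per1 were over 3-fold. Of all tested genes, 3.61% were over 3-fold higher and 5.98% over 3-fold lower. Nr1d1, the repressor REV-ERBα, was at 14.8 and 12.3 CPM at P14 and 103 and 177 CPM at P28 (3.37 ± 0.23, adjusted p = 1.3e-05), and Per1 fell by 3.03 ± 0.32 (adjusted p = 0.00012). Dbp, an output gene of the clock, was at 42.1 CPM in P28 sample 1 and 141 CPM in P28 sample 2. In these samples Scd1 stood at 946.9 and 588.9 RPKM and Thrsp at 390.7 and 625.2 RPKM. In adult samples 1 and 2, Dbp was at 303 and 185 CPM, Scd1 at 602.0 and 560.8 RPKM and Thrsp at 2478 and 2068 RPKM. Within a stage these values set 1 sample against 1, and Scd1 differed by 1.07-fold between the adult samples, so no link with Dbp is read from them. Other clock genes also differed between P28 samples 1 and 2. Arntl (27.9 and 16.7 CPM) and Npas2 (7.90 and 2.88 CPM) were higher in sample 1. Tef (97.1 and 179 CPM) and Per3 (21.1 and 47.5 CPM) were higher in sample 2. The part of feeding and of collection time in the lipogenic changes was not tested, and neither is recorded in the labels.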

How the data were processed

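Poly(A) RNA-seq of 8 whole-liver samples at 4 stages was used. The labels name Trizol and the study's methods the RNeasy kit. The authors aligned read pairs to the mouse genome and transcriptome and deposited, per gene symbol, a raw read count without normalization and the RPKM. The submitters' processing notes name mm9, and aligner and strand setting are not given in the sources used here. In GENCODE M21, exons of Me1, Elovl6 and Mlxipl overlap antisense transcripts. Exons of Srebf1 overlap the protein-coding gene Rai1 on the opposite strand and the microRNA Mir6922 on the same strand. Exons of Pnpla3 overlap Gm49513, a processed transcript on the same strand. The part of these overlaps in the counts was not tested.

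Genes were kept by filterByExpr (17081 of 22059), scaled by TMM and fitted with glmQLFit and glmQLFTest of edgeR (version 4.0.16, R 4.3.3), with 1 coefficient per stage over all 8 samples. A gene was called at a Benjamini-Hochberg adjusted p below 0.1, with over 3-fold as a further size. The SE is the log2 fold change divided by the square root of F. CPM are TMM-normalized. Duplicates differed by more than counting noise (chi-square per degree of freedom 39.9 to 79.2). The fit was tested on simulated data in which all genes shared 1 dispersion, 0.0159, which real genes need not share. At a threshold of 0.1, edgeR recovered 94% of the 2-fold changes from P14 to P28. False calls made up 11% of the calls of edgeR, 11.4% of those of limma and 15.7% of those of DESeq2, all above that threshold. Promoters were matched in Python (version 3.11.15).

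The members and lists were chosen with earlier results of these data known. Named genes are the 10 members, up to 4 genes per list with the largest called change from P14 to P28, the 5 genes most like Fasn and 6 fixed paralogues and partners. Further cell and state markers (Xist, Ddx3y, Dbp and others) were named after their values were seen, from marker lists. Alternatives were other filters and scalings, DESeq2 (version 1.42.0), limma (version 3.58.1) on log2(RPKM + 0.1), a fit to the 2 stages alone, a block for the replicate number, a threshold of 0.05, a 2-fold size and each sample left out. Splicing was not analysed here. For 1 of the marker lists, 1 gene and the summed level are not reported here.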

Additional observations from a re-analysis of the deposited data

How the results depend on the processing

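Of 640 recomputed values for the 40 changes (10 genes at 4 comparisons), 607 kept their direction and their side of the threshold, 19 lost the call, 5 gained one and 9 changed sign; from P14 to P28 this was 151 of 160. The 8 genes higher at P28 kept their calls in every alternative run, with log2 ranges of 2.79 to 3.21 for Fasn, 6.41 to 7.12 for Scd1, 3.59 to 3.89 for Elovl6 and 3.57 to 4.22 for Thrsp. The cause of the following changes was not tested. The count of genes lower from P14 to P28 went from 1 to 0 under median-ratio scaling and at a threshold of 0.05, and was 0 to 1 with a sample left out. The count over 3-fold was 8 at 2-fold, and 5 to 7 with a sample left out (6 without P14 sample 1, 7 without P28 sample 2). From P14 to adult, 2 lower genes became 1 with DESeq2 and at a threshold of 0.05, and 0 to 2 with a sample left out. Leaving out a sample gave 2 to 4 lower genes from E18 to P14 (2 without P14 sample 2), and 1 to 3 higher and 0 to 1 lower from P28 to adult. Signs changed for Acaca from E18 to P14 (-0.77 to 0.15 over the fits with a sample left out, the latter without E18 sample 1) and from P28 to adult (-0.04 to 0.53, the former without P28 sample 2), and for Pnpla3 from E18 to P14 (-0.72 with library size alone, -0.66 with limma, -0.14 to 0.5 with a sample left out, the former without E18 sample 1) and from P14 to P28 (0.01 with median-ratio scaling, 0 with DESeq2, and -1.05 to 0.56 with a sample left out, with 0.02 without P14 sample 1 and 0.56 without P28 sample 2). None of the values of changed sign passed the threshold.

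With the replicate number as a block (replicate block), the counts were 4 higher and 4 lower from E18 to P14, 8 and 1 from P14 to P28, 3 and 0 from P28 to adult and 8 and 2 from P14 to adult, as without it. Samples with the same number did not deviate in the same direction on average (mean correlation -0.099, range -0.325 to 0.116, over 8703 genes). With 2 samples per stage, these values cannot show whether samples of the same number share a litter or batch. Depth limits Thrsp at E18, with 11 and 12 reads, and Acaca, with 171 to 562 reads per sample.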
